A study of Danio rerio with 18 samples.

Results

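The 10 digestive enzyme genes described here are *ela2*, *ela2l*, *ela3l*, *ctrb1*, *prss1*, *prss59.1*, *cpa5*, *cpb1*, *cel.1* and *cel.2*, which are transcribed in the exocrine pancreas. They were picked by gene symbol out of the 31388 genes counted in each library, 9 under the symbol itself and *prss1* under its older symbol *try*, which a table of gene names pairs with it. All 10 were among the 23367 genes with enough reads to be tested. RNA was sequenced from whole zebrafish larvae at 5 days post fertilization (DPF), in 18 libraries that fell into 6 groups of 3. Each library was made from a pool of 15 larvae, which the study describes as never fed. Of the groups, 4 were wildtype (WT): germ-free larvae (GF), raised without microbes; larvae conventionalized (CONVD) with a microbial community from 3 DPF; and larvae mono-associated from 3 DPF with the single bacterial strain *Exiguobacterium* ZWU0009 or *Chryseobacterium* ZOR0023. The other 2 groups were *myd88*-/- mutants, either GF or CONVD; Myd88 is the adaptor through which most Toll-like receptors signal. The mutants came from 1 line that had been outcrossed to the wildtype ABTL strain, and by the study's own account its mutants and WT larvae were not raised from sibling parents, so the mutation cannot be told apart from the parents in any comparison of genotypes.

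Acinar cells of the exocrine pancreas make the enzymes that digest food in the gut. They store them in zymogen granules, mostly as inactive precursors, and release them into the intestine when a meal raises the hormone cholecystokinin. The proteases form a cascade: enterokinase on the intestinal surface cleaves trypsinogen, and trypsin then activates the chymotrypsinogens, proelastases and procarboxypeptidases. Carboxyl ester lipase, by contrast, is secreted in active form and depends on bile salts. In zebrafish the acinar tissue is in place and filled with these proteins by the time the larva can feed, and the transcription factor Ptf1a, together with Rbpjl, drives the genes.

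The members cover each of these classes. *ela2* (ENSDARG00000056744), *ela2l* (ENSDARG00000056765) and *ela3l* (ENSDARG00000007276) encode proteases of the elastase family. *ctrb1* (ENSDARG00000090428) encodes a chymotrypsinogen, and *prss1* (ENSDARG00000042993) and *prss59.1* (ENSDARG00000079274) encode trypsinogens. *cpa5* (ENSDARG00000021339) encodes an A-type carboxypeptidase, which trims aromatic and aliphatic residues from the end of a peptide, and *cpb1* (ENSDARG00000045442) a B-type carboxypeptidase, which trims basic ones. *cel.1* (ENSDARG00000017490) and *cel.2* (ENSDARG00000029822) encode carboxyl ester lipases, which split cholesterol esters and other lipids. On the RefSeq assembly GRCz12tu, *ela2* and *ela2l* are direct neighbours on chromosome 8 with 0 annotated genes between them, and so are *cel.1* and *cel.2* on chromosome 21. *prss1* and *prss59.1* are both on chromosome 16 with 55 genes between them. Reads of 50 nucleotides can map to more than 1 gene of such families, and how the counting divided them is not given in the sources used here, so levels of close copies are uncertain.

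Libraries held 6404744 to 23600976 counted reads. Depth differed by group: GF WT libraries held 7946202 to 10999402, CONVD WT libraries 11787698 to 23600976 and GF mutant libraries 13542231 to 16277918. Each member had between 115 and 7182 reads in every library, so none was near the limit of detection. The first principal component of all genes, with 55.6% of the variance, parted mutants from WT larvae. On the second, with 5.52%, *Chryseobacterium* pools 1 and 3 lay at one end (−29.6 and −25). The GF WT libraries lay at the other end (16.6 to 22.6), and *Chryseobacterium* pool 2 was at −7.93. *myd88* itself was at 9.12 to 12.4 counts per 1000000 reads (CPM) in GF WT larvae, 4.32 to 6.02 CPM in colonized WT larvae and 3.09 to 4.6 CPM in mutants. The 13 mitochondrial genes took 4.12 to 4.72% of the reads.

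Transcripts of the 10 genes together made up 0.0753 to 0.113% of the reads in GF WT larvae. The range was 0.0843 to 0.158% in CONVD WT larvae, 0.108 to 0.151% with *Exiguobacterium* and 0.0611 to 0.12% with *Chryseobacterium*. It was 0.142 to 0.19% in GF mutants and 0.136 to 0.156% in CONVD mutants. The 4 WT groups thus overlapped each other, as did the 2 mutant groups, and the GF mutant libraries all lay above the GF WT libraries. In whole larvae, a change in the number of acinar cells and a change in RNA per acinar cell cannot be told apart.

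**Figure D1:**
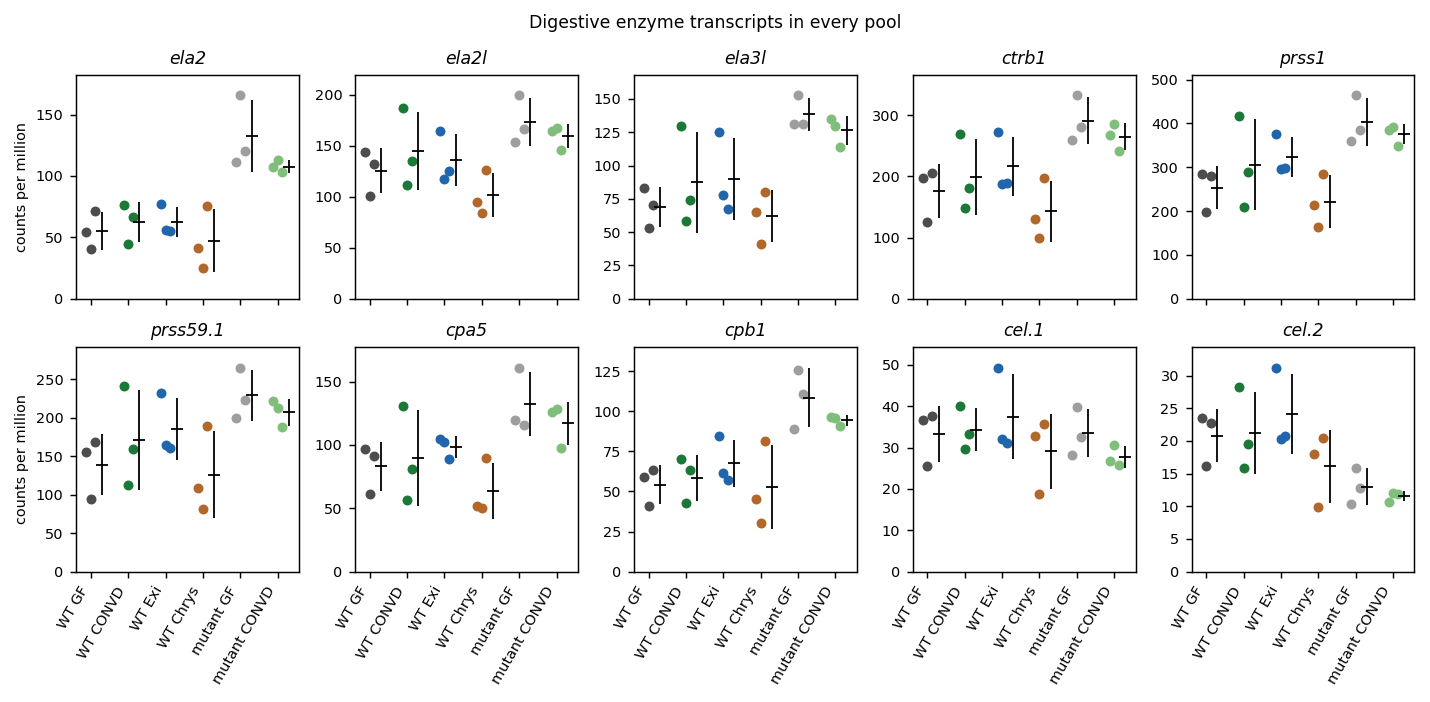
Level of each digestive enzyme transcript in every pool, in CPM (linear axes from 0, a scale of its own for each gene). Points are the 3 pools of a group, and the dash with its bar is the mean ± SD (n = 3). For *ela2* the 6 mutant pools lie at 103 to 166 CPM and the 12 WT pools at 25.4 to 76.9 CPM, whereas for *cel.2* the mutant pools lie at 10.3 to 15.9 CPM, in the lower part of the WT range.

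Colonization of WT larvae was not followed by a detected change in any of the 10 transcripts. A gene was called when its p-value, adjusted by Benjamini and Hochberg's method over all genes tested, was below 0.05 and its fold change was at least 1.3 in edgeR's quasi-likelihood test. By this rule 0 of the 10 members were called between CONVD and GF WT larvae, where 1.63% of all genes were. None had an unadjusted p below 0.05 (2490 of the 23367 genes tested did), and DESeq2 also called 0. The 3 CONVD libraries overlapped the 3 GF libraries for every member (14.8% of all genes did not overlap). The trypsinogen gene *prss1* is given as an example. It was at 285, 197 and 279 CPM in the 3 GF pools and at 416, 210 and 290 CPM in the CONVD pools. CONVD pool 1 was the highest and GF pool 2 the lowest, and the remaining CONVD pools lay within or close to the GF range. The log2 fold change was 0.26 ± 0.25 (SE, edgeR adjusted p = 0.81), with a 95% interval of −0.28 to 0.80. For *ela3l* and *prss59.1* the interval was wider, at −0.39 to 1.02 and −0.45 to 1.01. It was narrower for *ela2l*, at −0.28 to 0.65, and for *cel.1*, at −0.52 to 0.55. Over the members the log2 fold changes ran from −0.02 for *cel.2* to 0.32 for *ela3l*, with a median of 0.17 against 0 for all genes, and 9 of 10 were positive. Leaving out CONVD pool 1 turned 8 of the 10 below 0, to between −0.28 for *cpa5* and −0.02 for *prss1*.

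With mono-association the fitted differences were small and of opposite sign in the 2 strains, and none was called. The members moved together from pool to pool, as described below. The signs of the 10 members are therefore not independent of each other, here or in the other comparisons. With *Exiguobacterium*, 0 of 10 members were called against GF larvae (0.757% of all genes), although all 10 log2 fold changes were positive, from 0.11 for *ela2l* to 0.41 for *prss59.1*, with a median of 0.26. *prss1* was at 376, 297 and 298 CPM in the *Exiguobacterium* pools, and it was the 1 member whose libraries did not overlap those of GF larvae (12.5% of all genes; log2 fold change 0.35 ± 0.25, edgeR adjusted p = 0.75). With *Chryseobacterium*, 0 of 10 were called (1.51% of all genes), all 10 log2 fold changes were negative, from −0.45 for *cel.2* to −0.09 for *cpb1*, with a median of −0.27, and no member's libraries were apart from those of GF larvae (13% of all genes). None of the members had an unadjusted p below 0.05 against GF in either strain. Of the 23367 genes tested, 2167 did with *Exiguobacterium* and 2624 with *Chryseobacterium*. DESeq2 called 0 members in both. With *Chryseobacterium* pool 2 alone, pools 1 and 3 being left out for their place on the second component, the median was −0.80. Pool 2 was the lowest of its group for 10 of 10 members, so this value rests on the lowest pool. Without pool 2, *ela2*, *ela3l*, *prss59.1*, *cpb1* and *cel.1* were between 0.04 and 0.23 above GF on the log2 scale.

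Set against each other, the colonized WT groups gave 0 called members as well. Between CONVD and *Exiguobacterium* larvae (0.257% of all genes called) the median log2 fold change was −0.12. No member had an unadjusted p below 0.05 (1659 of the 23367 genes tested did). CONVD larvae were above *Chryseobacterium* larvae (0.116% of all genes called) by a median of 0.46, and 1 member, *ela2l*, had an unadjusted p of 0.038 (edgeR adjusted p = 0.78). There 1425 of the 23367 genes tested had an unadjusted p below 0.05. *Exiguobacterium* larvae were above *Chryseobacterium* larvae (0.77% of all genes called) by a median of 0.56, with all 10 positive, and 3 intestinal and liver markers, *anpepa*, *anpepb* and *ttr*, were called higher as well. The largest of these differences were those of *cpa5* and *cel.2*, both 0.64, and 1 member, *prss1*, had an unadjusted p of 0.048 (edgeR adjusted p = 0.46). An unadjusted p below 0.05 was reached by 2517 of the 23367 genes tested. *prss1* was also the 1 member whose *Exiguobacterium* libraries, at 297 to 376 CPM, did not overlap the *Chryseobacterium* libraries, at 164 to 284 CPM (13.5% of all genes). DESeq2 called 0 members in each of these 3 comparisons. The members' values against GF and between the colonized groups share libraries and are not independent of each other.

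In *myd88* mutants, CONVD larvae had 0 of 10 members called against GF larvae (0.077% of all genes) and 0 by DESeq2. At an unadjusted p below 0.05 there were 0 members and 1545 of the 23367 genes tested. All 10 log2 fold changes were negative, between −0.30 for *ela2* and −0.10 for *prss1*, with a median of −0.16, and every member's CONVD libraries overlapped the GF ones (16.3% of all genes did not). *prss1* was at 360, 465 and 384 CPM in GF mutants and at 385, 392 and 349 CPM in CONVD mutants. The GF pool 2 was the highest of the 6 and the other 5 lay close together. The response to conventionalization was then compared between genotypes, as the log2 fold change in mutants minus that in WT larvae. This difference was negative for all 10 members, from −0.46 ± 0.46 (SE) for *ela2* to −0.15 ± 0.41 for *cel.2*, with a median of −0.31. By edgeR 0 of 10 were called (0.813% of all genes), and by DESeq2 0. At an unadjusted p below 0.05 there were 0 members and 1725 of the 23367 genes tested. The 95% interval of the difference for *ela2* was −1.45 to 0.53, so responses that differ by up to those bounds were not told apart at this spread.

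In most groups the members moved together from pool to pool. CONVD pool 1, *Exiguobacterium* pool 1, *Chryseobacterium* pool 3 and GF mutant pool 2 were the highest of their 3 for 10 of 10 members. GF pool 2, CONVD pool 2 and *Chryseobacterium* pool 2 were the lowest for 10 of 10. In GF WT larvae the highest pool was pool 1 for 5 members and pool 3 for the other 5. In CONVD mutants pool 2 was the highest for 7 members and pool 1 for 3, while *cel.2* was lowest in pool 1. The highest pool of a group was 1.18 to 2.97 times the lowest in WT groups, the widest being *ela2* with *Chryseobacterium*, at 41.2, 25.4 and 75.3 CPM. In the mutant groups it was 1.07 to 1.53 times the lowest. Among the 3 libraries of a group, the members' counts varied beyond counting error, with a chi-square per degree of freedom between 12.8, in CONVD mutants, and 209, in CONVD WT larvae, a value that grows with the number of reads.

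The within-group SD of log2 CPM was 0.264 for *ela2l*, the steadiest member, and 0.431 for *ela2*, the most variable, against a median of 0.11 for the 12466 genes of 10 CPM or more. Every member varied more than at least 97.8% of those genes. After group means were removed, the correlation between members over the 18 libraries was between 0.695 and 0.987 over the 45 pairs, with a median of 0.91. The points share libraries and their depth, and these values are a description. Within a group the summed levels of other tissues varied less. For the members' sum the highest pool was 1.15 to 1.95 times the lowest, and for 26 other acinar genes 1.19 to 2.14 times. For the endocrine pancreas markers it was 1.01 to 1.09 times, for the intestinal epithelium markers 1.06 to 1.41 times and for the liver markers 1.05 to 1.36 times. The endocrine sum was led by *neurod1*, which neurons also transcribe, at 196 ± 11.9 CPM in GF WT larvae. It says little of the hormone genes, whose spread differed. In GF WT and *Chryseobacterium* larvae *gcga* was at 4.98 ± 2.07 and 4.33 ± 2.68 CPM, and *sst1.1* at 4.81 ± 0.856 and 6.27 ± 0.405 CPM. What set the acinar level of a pool was not tested.

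**Figure D2:**
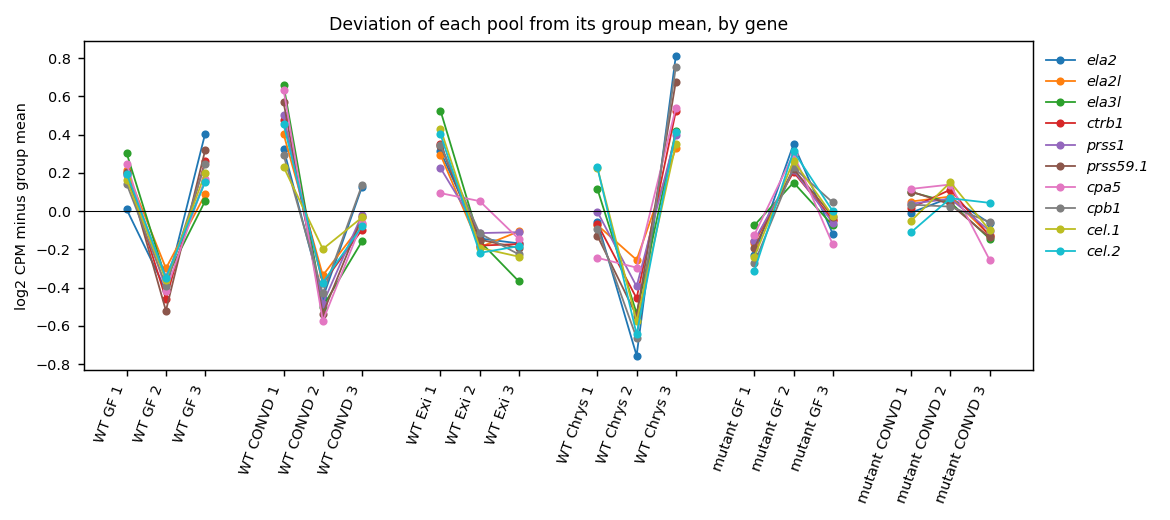
Deviation of each pool from the mean of its group, as log2 CPM minus the group mean, for the 10 digestive enzyme genes (1 coloured line each) in the 18 pools. In most groups the lines run together: all 10 genes are highest in CONVD pool 1 and lowest in CONVD pool 2. The CONVD mutants, at the far right, spread least for most genes.

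Between genotypes, some members passed the test. In GF larvae, 4 of the 10 were higher in mutants than in WT larvae and 0 were lower. The 4 were *ela2*, *ela3l*, *prss1* and *cpb1*. The share is read against a background in which 31.3% of all genes were called, 16.3% higher and 15.1% lower. For 9 of 10 members the mutant libraries did not overlap the WT libraries, 8 higher and 1 lower, where 53% of all genes did not overlap (26.8% higher and 26.2% lower). With 3 libraries against 3, the smallest p of an exact 2-sided permutation test is 0.1. The members' median log2 difference was 0.69, against −0.01 for all genes.

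The largest difference was in the elastase gene *ela2*. It was at 54, 40.3 and 71.1 CPM in GF WT pools and at 111, 166 and 120 CPM in GF mutant pools. The lowest mutant pool was thus above the highest WT pool. The log2 difference was 1.26 ± 0.33 (SE), a fold of 2.39 (edgeR adjusted p = 0.0078), and the call held without any 1 library. Its neighbour *ela2l* was at 144, 101 and 132 CPM in WT and at 154, 200 and 167 CPM in mutants, a log2 difference of 0.46 ± 0.21 that missed the threshold (edgeR adjusted p = 0.10). The third elastase gene, *ela3l*, was at 83.4, 52.9 and 70.2 CPM in WT and at 131, 153 and 131 CPM in mutants. All mutant pools were above all WT pools, with a log2 difference of 0.99 ± 0.32 (edgeR adjusted p = 0.024), a call lost without GF pool 2 or 3 or without mutant pool 2 (adjusted p = 0.09, 0.058 and 0.069).

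Among the carboxypeptidases, *cpb1* was at 58.8, 40.7 and 63.3 CPM in GF WT pools and at 89, 126 and 111 CPM in GF mutant pools. The groups did not overlap, and the log2 difference was 0.99 ± 0.30 (edgeR adjusted p = 0.018). The call was lost without GF pool 2 (adjusted p = 0.074) or without mutant pool 2 (0.065). *cpa5* was at 61 to 96.7 CPM in WT and at 116 to 161 CPM in mutants, with a log2 difference of 0.67 ± 0.30 (edgeR adjusted p = 0.091).

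Of the trypsinogen and chymotrypsinogen genes, *prss1* was at 197 to 285 CPM in GF WT larvae and at 360 to 465 CPM in GF mutants. The log2 difference of 0.66 ± 0.25 just passed the threshold (edgeR adjusted p = 0.047), and the call was lost whichever of the 6 libraries was left out, with adjusted p between 0.061 and 0.16. *ctrb1* was at 125 to 206 CPM in WT and 259 to 333 CPM in mutants, a log2 difference of 0.72 ± 0.28 that just missed the threshold (edgeR adjusted p = 0.054) and was called by DESeq2 (adjusted p = 0.03). *prss59.1* was at 93.9 to 168 CPM in WT and 199 to 265 CPM in mutants, a log2 difference of 0.71 ± 0.34 (edgeR adjusted p = 0.10). The groups did not overlap for any of these 3 genes, whether or not they were called.

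The lipase genes were not called in GF larvae. *cel.1* was at 36.7, 25.5 and 37.6 CPM in GF WT pools and at 28.1, 39.8 and 32.6 CPM in GF mutant pools, and the 2 groups overlapped. Its log2 difference was 0.00 ± 0.25, with a 95% interval of −0.54 to 0.54. *cel.2* was at 23.5, 16.1 and 22.8 CPM in WT and at 10.3, 15.9 and 12.8 CPM in mutants. It was the 1 member whose mutant libraries all lay below the WT libraries, by a narrow gap, with a log2 difference of −0.69 ± 0.29 that missed the threshold (edgeR adjusted p = 0.074).

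**Figure D3:**
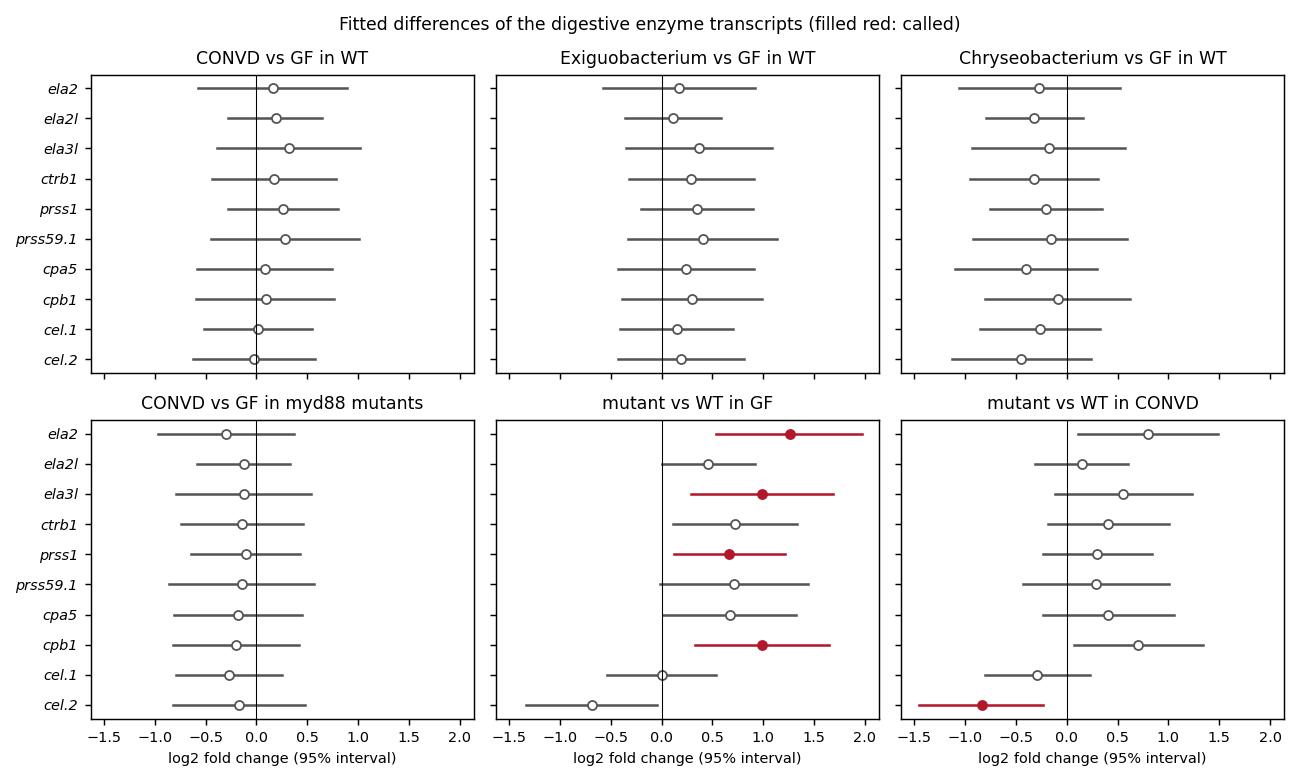
Fitted log2 fold changes of the 10 digestive enzyme transcripts with 95% intervals from the edgeR fit, in the 3 comparisons of colonized with GF WT larvae, in the comparison of CONVD with GF mutants, and in mutants against WT larvae under GF and CONVD conditions. Filled red points passed the call; 4 did in GF larvae, led by *ela2* at 1.26, and 1 in CONVD larvae, *cel.2* at −0.84, while all intervals in the colonization panels span 0.

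In CONVD larvae, 1 of 10 members was called between genotypes, and the median log2 difference over the members was 0.36, against −0.01 for all genes. This was *cel.2*, lower in mutants, in a comparison where 29.7% of all genes were called, 15.2% higher and 14.5% lower. *cel.2* was at 28.2, 15.9 and 19.5 CPM in CONVD WT pools and at 10.7, 12.1 and 11.9 CPM in CONVD mutant pools. All mutant pools were below all WT pools, with a log2 difference of −0.84 ± 0.28 (edgeR adjusted p = 0.028). The call was lost without CONVD WT pool 1 (adjusted p = 0.097) and without mutant pool 1, 2 or 3 (0.09, 0.06 and 0.058). *cel.1* had a log2 difference of −0.29 ± 0.24 (edgeR adjusted p = 0.35).

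*ela2* was at 76.5, 44.6 and 66.7 CPM in CONVD WT pools and at 107, 113 and 103 CPM in CONVD mutant pools. The groups did not overlap, and the log2 difference of 0.80 ± 0.32 just missed the threshold (edgeR adjusted p = 0.059). *cpb1* was at 42.6 to 70.3 CPM in WT and at 90.7 to 96.6 CPM in mutants, a log2 difference of 0.70 ± 0.29 (edgeR adjusted p = 0.07). Both were called when the CONVD groups were fitted alone (adjusted p = 0.041 and 0.047). For these 2 and *cel.2* the groups did not overlap, 3 of 10 members where 56.1% of all genes did not. The other proteases overlapped. CONVD WT pool 1 lay within the mutant range for *ela3l* and *ctrb1*. It lay above every mutant pool for *ela2l*, *prss1*, *prss59.1* and *cpa5*, as for *prss1* at 416 CPM against 349 to 392 CPM. *ela3l*, for example, was at 130, 58.3 and 73.9 CPM in WT and at 135, 130 and 114 CPM in mutants, a log2 difference of 0.55 ± 0.31 (edgeR adjusted p = 0.17). Without CONVD WT pool 1 it was 0.93 (adjusted p = 0.024), and *cpa5* was also called, at 0.76 (adjusted p = 0.044). The comparisons in GF and CONVD larvae share no library, and their difference, tested above as the difference of responses, was called for 0 of 10 members.

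Because the members moved together in most groups, each gene was also taken as its share of the summed counts of the 10. Gene length was not used, so a share can be followed across libraries but does not rank one gene above another. The shares were computed after the differences were known and are given as a description, without a test. The shares of a library depend on each other, so a share can fall because other members rose. In GF larvae *cel.1* had a log2 difference of 0.00 between genotypes and *ela2l* of 0.46, neither called, although their shares were lower in mutants. *cel.2* made up 1.63 to 2.24% of the sum in the 12 WT libraries, with a median of 1.91%, and 0.691 to 0.872% in the 6 mutant libraries, with a median of 0.792%. *cel.1* made up 2.52 to 4.09% in WT and 1.73 to 2.07% in mutants. *ela2* made up 4.2 to 6.39% in WT and 6.94 to 8.62% in mutants. For these 3 genes the 12 WT and the 6 mutant libraries did not overlap, and for the other 7 they did. Like for like, 3 more genes did not overlap. As a gauge, the levels of 53% of all genes in GF larvae and 56.1% in CONVD larvae did not overlap between genotypes. No such background was computed for shares. *ela2l* made up 11.6 to 13.5% in GF WT larvae and 10.4 to 10.6% in GF mutants, and 11.8 to 13.5% and 10.7 to 10.7% in CONVD larvae. *ela3l* made up 6.14 to 7.35% and 7.92 to 8.94% in GF larvae, and 6.7 to 8.2% and 8.32 to 8.76% in CONVD larvae. *cpb1* made up 5.19 to 5.54% and 6.09 to 7.02% in GF larvae, and 4.42 to 5.72% and 6.12 to 6.64% in CONVD larvae. Thus the share of *ela2l* was lower and those of *ela3l* and *cpb1* were higher in mutants at either condition, while *ctrb1*, *prss1*, *prss59.1* and *cpa5* overlapped in both. The share of *ctrb1* stayed within 16.2 to 18.1% in WT and 17.3 to 18.2% in mutants, and that of *prss1* within 24.1 to 27.3% and 24.1 to 25.5%.

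**Figure D4:**
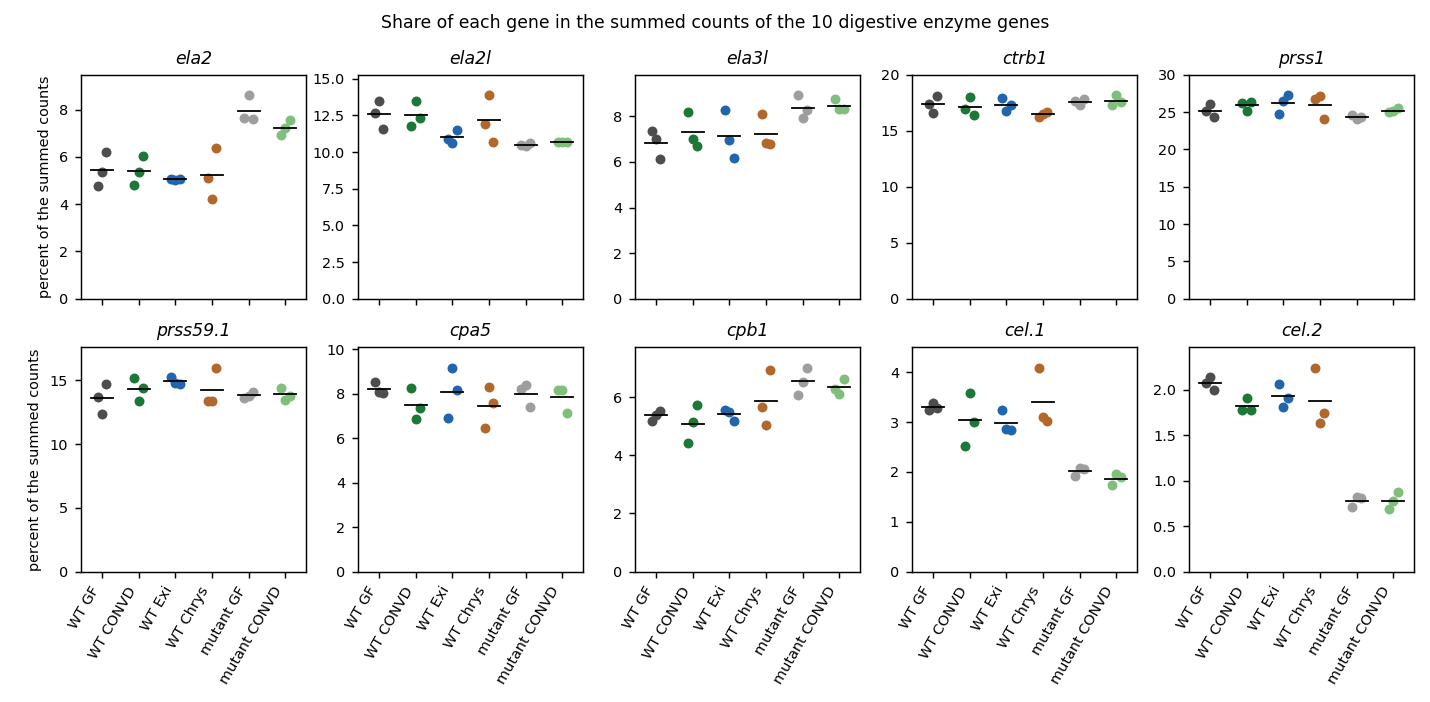
Share of each gene in the summed counts of the 10 digestive enzyme genes, in percent, in every pool (points) with the group mean (line). The share of *ela2* shifts up in the 6 mutant pools and those of *cel.1* and *cel.2* shift down, to 0.691 to 0.872% for *cel.2*, whereas *ctrb1*, *prss1*, *prss59.1* and *cpa5* keep similar shares in all 6 groups. A share can fall where the level of the gene does not.

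Ratios of reads within pairs of genes use the same counts as the shares, so they describe the shift again and add no separate support. The ratio of *ela2* to *ela2l* reads was 0.302 to 0.597 in WT libraries, with a median of 0.436, and 0.647 to 0.828 in mutants, with a median of 0.712. The ratio of *cel.2* to *cel.1* reads was 0.523 to 0.706 in WT and 0.368 to 0.462 in mutants. The ratio of *ela2* to *cel.2* was 2.28 to 3.68 in WT and 8.65 to 10.8 in mutants. It sets the gene that rose most against the lowest, so a wide contrast was built in. The ratios *prss59.1* to *prss1*, 0.477 to 0.665 in WT and 0.539 to 0.581 in mutants, and *cpb1* to *cpa5*, 0.537 to 0.915 and 0.743 to 0.951, overlapped, although in GF larvae alone the latter was 0.608 to 0.692 in WT and 0.743 to 0.951 in mutants. Whether mutant and WT larvae carry different alleles of these genes, and so different numbers of mapped reads, was not tested.

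The genes most like the members over the 18 libraries were mostly other acinar genes. Likeness was the Pearson correlation of a gene's log2 CPM with the mean of the members' standardized log2 CPM, among genes of at least 1 on the log2 CPM scale, and it is a description of libraries that also share depth and groups. The trypsinogen gene *prss59.2* came first (r = 0.978), followed by the elastase genes listed as CELA1 (1 of 7) and CELA1 (5 of 7), both at 0.965, zgc:112160 (0.959), the carboxypeptidase gene *cpa4* (0.95) and si:ch211-240l19.5 (0.934). Then came *sycn.2* (0.908), which encodes the zymogen granule protein syncollin, *alas2* (0.902), zgc:136461 (0.9) and *cpa1* (0.888). *alas2*, which encodes the first enzyme of heme synthesis in red blood cells, was the 1 named gene in this group with a known role outside digestion.

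Of the other acinar enzyme and granule genes, 25 were tested. In the comparisons with GF of CONVD, *Exiguobacterium* and *Chryseobacterium* WT larvae and of CONVD mutants, edgeR called 0, and 2, 2, 1 and 0 of them had an unadjusted p below 0.05. Of the 23367 genes tested, 2490, 2167, 2624 and 1545 had, in the same order. DESeq2 called 0 in each of the 4. Between genotypes 6 were higher and 1 was lower in GF mutants, where 16.3% of all genes were higher and 15.1% lower. In CONVD mutants 4 were higher and 4 lower, near the background of 15.2% and 14.5%. The median log2 differences were 0.36 and 0.01. *pla2g1b*, a phospholipase, rose from 5.33 ± 1.01 CPM (SD, n = 3) in GF WT larvae to 18.4 ± 0.718 CPM in GF mutants, a log2 difference of 1.77 (edgeR adjusted p = 1.2e-10). *amy2a*, an amylase, rose from 26.8 ± 8.49 to 75.1 ± 11.4 CPM, by 1.46 (edgeR adjusted p = 9.9e-04), and *endou* by 1.57 (8.4e-05). zgc:92590 was lower in CONVD mutants, at 0.731 ± 0.172 against 3.41 ± 1.17 CPM, with a log2 difference of −2.16 (edgeR adjusted p = 7.7e-05). The most abundant of the list, *prss59.2*, was at 213 ± 62.8 CPM in GF WT larvae and 336 ± 48.3 CPM in GF mutants, and zgc:112160 at 121 ± 28.5 and 196 ± 34 CPM, and neither was called.

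Of 17 transcription factors of the pancreas tested, 7 were higher and 1 was lower in GF mutants (16.3% and 15.1% of all genes), and 5 were higher and 3 lower in CONVD mutants (15.2% and 14.5%). *gata6* and *pdx1*, which act in pancreas formation and also in the gut, rose by 1.2 and 1.31 on the log2 scale in GF mutants (edgeR adjusted p = 1.7e-07 and 1.2e-04), and *sox9b*, a duct cell factor, by 0.51 (9.4e-06). *prox1a* was lower, with a log2 difference of −0.60 (6.5e-08). The acinar factor *ptf1a* was at 1.59 ± 0.45 CPM in GF WT larvae and 1.02 ± 0.511 CPM in GF mutants and was not called. *rbpjl* and *bhlha15*, factors that keep acinar cells differentiated in mice, were lower in CONVD mutants, both by 2.07 on the log2 scale (edgeR adjusted p = 1.9e-05 and 3.3e-04). They were at 1.1 ± 0.101 and 0.26 ± 0.164 CPM there, against 4.57 ± 1.08 and 1.17 ± 0.182 CPM in CONVD WT larvae. These levels are low, and that of *bhlha15* rests on few reads. In GF larvae neither was called. There *rbpjl* was at 1.48 ± 0.339 CPM in mutants and 2.61 ± 1.04 CPM in WT, and *bhlha15* at 0.371 ± 0.225 and 0.79 ± 0.194 CPM. Among WT comparisons with GF, 1 gene of the list was called, *sox9b*, higher in CONVD larvae by 0.39 (edgeR adjusted p = 0.0035).

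Of 11 genes tested that control secretion or activation, 3 were higher and 1 lower in GF mutants, against the same 16.3% and 15.1%. *tmprss15*, which encodes enterokinase, was higher by 0.50 on the log2 scale (edgeR adjusted p = 0.02), at 7.54 ± 1.76 against 5.35 ± 1.02 CPM. *spink4*, of the family of trypsin inhibitors, was higher by 0.90 (3.9e-04), and *ccka*, which encodes cholecystokinin, was lower, with a log2 difference of −0.58 (0.0096), at 5.11 ± 0.57 against 7.63 ± 0.867 CPM. In CONVD mutants 2 were higher, *gcga* (1.04, adjusted p = 0.0058) and *spink4* (0.56, 0.0085), and 0 were lower (15.2% and 14.5% of all genes). Of 34 genes of the secretory machinery of the endoplasmic reticulum, 12 were higher in GF mutants and 8 in CONVD mutants and 0 were lower, beside the same shares over all genes. They were led in GF larvae by *ssr1*, a subunit of the translocon-associated complex, at 0.82 (edgeR adjusted p = 2e-08). Because whole larvae were sequenced, the tissue behind the values of these genes, *ccka* included, was not resolved. The same holds for the transcription factors above.

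Marker genes of the intestine and liver also differed between genotypes. In GF mutants 16 of 19 intestinal epithelium markers and 11 of 14 liver markers were higher and 0 were lower. Over all genes 16.3% were higher and 15.1% lower. In CONVD mutants 11 and 10 were higher and 0 were lower, against 15.2% and 14.5% of all genes. The summed intestinal markers were at 2140 to 2730 CPM in GF WT larvae and 4380 to 4660 CPM in GF mutants, and the summed liver markers at 2080 to 2830 and 3680 to 3860 CPM. Of 13 endocrine pancreas markers, 2 were higher and 2 lower in GF mutants, near the shares over all genes. The hormone genes *gcga* and *sst1.1* were higher, by 1.05 and 0.51 on the log2 scale (edgeR adjusted p = 0.0092 and 0.026). *neurod1* and *pax6b* were lower, with log2 differences of −1.15 and −0.46 (edgeR adjusted p = 1.5e-15 and 3.6e-06). The sum of the 14 matched markers, of which 13 were tested, was 475 to 505 CPM in GF WT larvae and 358 to 362 CPM in GF mutants. *neurod1*, which neurons also transcribe, was the most abundant of them, at 196 ± 11.9 CPM in GF WT larvae and 88.1 ± 1.29 CPM in GF mutants. No intestinal or liver marker was at 0 in any library, and at most 1 endocrine marker was. The 4 members called higher in GF mutants were higher in the same comparison as most of these intestinal and liver markers. The part of the size or stage of these organs in the members' levels was not tested. Among colonization comparisons, 2 intestinal markers, *anpepa* and *anpepb*, fell with *Chryseobacterium* (log2 fold changes −0.56 and −0.75, edgeR adjusted p = 0.007 and 0.042), 1 liver marker, *ttr*, rose with *Exiguobacterium* (0.41, 0.036), and 1, *hpx*, fell in CONVD mutants (−1.52, 0.024). In *Exiguobacterium* against *Chryseobacterium* larvae, where the members' median was 0.56, the medians of the intestinal and liver markers were 0.43 and 0.38. There *anpepa*, *anpepb* and *ttr* were higher (0.73, 0.84 and 0.53, with edgeR adjusted p = 7.8e-04, 0.036 and 0.0066). These were 2 of 19 intestinal and 1 of 14 liver markers, where edgeR called 0.77% of all genes. DESeq2 called 7 intestinal and 4 liver markers higher, and its share over all genes is not given here. *ttr* was also lower in CONVD than in *Exiguobacterium* larvae (−0.47, edgeR adjusted p = 0.013). The part of the gut and liver transcripts in the members' differences between colonized groups was not tested.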

How the data were processed

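Total RNA from 18 pools of whole larvae was made into libraries and sequenced by the authors from 1 end for 50 nucleotides, then mapped to GRCz10 with the GeneTiles server. Their processing notes name Bowtie2, SAMtools and DESeq, versions not stated. The deposited values are the authors' read counts per gene and library. For 9 libraries the unit recorded here is expected counts, a name the authors do not use, because an unnamed last entry, between 0.747 and 1.481, is not a whole number in the deposited column. It was left out, and all gene values are whole, so the unit rests on that entry alone. In each group that held the entry, its value rose with the number of reads in the library. In GF WT larvae it was 0.914, 1.117 and 1.269 at 7946202, 9830442 and 10999402 reads. The 9 libraries were those of GF, *Exiguobacterium* and *Chryseobacterium* WT larvae. CONVD WT and mutant libraries lacked the entry. The files thus split along groups, and an effect of this split cannot be told apart from colonization or genotype where a comparison crosses it. The library kit does not mark strand.

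In R 4.3.3, edgeR 4.0.16 kept genes with filterByExpr (minimum count 10, minimum total 15). Counts were normalized by TMM, the 18 libraries were fitted jointly with a coefficient for each group (12 residual degrees of freedom), and 10 comparisons were made with the robust quasi-likelihood test and Benjamini-Hochberg adjustment within each. CPM used TMM library sizes, and log2 values a prior count of 2. Group means are given ± SD. P-values measure the spread between pools, which the labels call biological replicates.

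Alternatives were RLE size factors, DESeq2 1.42.0, the groups compared alone, no filter, no fold threshold, library sizes without acinar genes, a replicate block, and the omission of each library in turn. Leaving out *Chryseobacterium* pools 1 and 3 was added after seeing the data. The fits were tested on simulated data with known fold changes planted in CONVD WT larvae. Of 50 genes planted at each fold, edgeR called 7 at 1.3, 31 at 1.5, 45 at 2 and 50 at 4. The planted genes were not matched to the members' wider spread, so these counts do not say how often such a change in a member would be called. Tables were handled in Python 3.11.15, and RefSeq's gene table served for neighbours only.

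The members and lists were chosen with earlier results of these data known. Every member was tested in every comparison, and where some are not named the text gives the count called and the median. Of other lists, up to 4 called genes with the lowest adjusted p in a comparison and the 2 most abundant genes may be named. The 10 genes most like the members are also named. Those given as not called, *ptf1a*, *rbpjl* and *bhlha15* were named as acinar markers. Enzyme sequences were not analysed here.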

Additional observations from a re-analysis of the deposited data

How the results depend on the processing

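For 8 of the 10 comparisons the count of called members was 0 in the fit reported and with each library left out (0 to 0), and 0 under the other alternatives. In GF larvae 4 members differed between genotypes, and 1 to 3 with 1 library left out. In CONVD larvae it was 1, 0 to 2 with 1 library left out, and 3 (*ela2*, *cpb1* and *cel.2*) when the 2 groups were fitted alone. In GF larvae *cel.2* was also called when the 2 groups were fitted alone (adjusted p = 0.0096), and *prss1* was lost with no filter on low counts (adjusted p = 0.056). The cause was not tested. Labels give the groups the same replicate numbers, and whether the numbers pair the pools was not settled. Of 27 pairs of same-numbered libraries 4 had correlated deviations over 0.1 (−0.0915 to 0.182). Within a genotype, the same-numbered library was nonetheless the closest match in the other group for most pools. This held for every pool of CONVD against GF WT larvae (0.088, 0.0934 and 0.0745). Between genotypes it was not the closest for most pools. Pool 2 was the lowest for 10 of 10 members in GF, CONVD and *Chryseobacterium* WT larvae, and for 4 with *Exiguobacterium*. With the replicate number as a block, 5 members were called in GF larvae, *ctrb1* being added (0.76, adjusted p = 0.044), and the counts in the other comparisons did not change.

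No called difference changed sign. Uncalled ones near 0 did: in the comparison of mutants with WT in GF larvae, *cel.1* was 0.00 with RLE, 0.01 with DESeq2 and 0.02 with the replicate block, and with DESeq2 *cel.2* was 0.03 in CONVD against GF WT larvae and *ela2* 0.00 in CONVD against *Exiguobacterium* larvae. With 1 library left out, 55 of 660 values changed sign. For CONVD against GF WT larvae the log2 fold change ran over *ela2* 0.00 to 0.38, *ela2l* −0.03 to 0.35, *ela3l* −0.07 to 0.55, *ctrb1* −0.09 to 0.35, *prss1* −0.02 to 0.48, *prss59.1* −0.04 to 0.52, *cpa5* −0.28 to 0.34, *cpb1* −0.07 to 0.29, *cel.1* −0.12 to 0.12, *cel.2* −0.25 to 0.17. For *Exiguobacterium* against GF the log2 fold change ran over *ela2l* −0.05 to 0.22, *cel.1* −0.10 to 0.29, *cel.2* −0.03 to 0.31. For *Chryseobacterium* against GF the log2 fold change ran over *ela2* −0.78 to 0.09, *ela3l* −0.41 to 0.08, *prss59.1* −0.57 to 0.10, *cpb1* −0.56 to 0.23, *cel.1* −0.44 to 0.04. For CONVD against GF mutants the log2 fold change ran over *prss1* −0.17 to 0.02, *cel.2* −0.31 to 0.01. For the difference of responses the log2 fold change ran over *cpa5* −0.51 to 0.10, *cel.2* −0.34 to 0.08. For mutants against WT in GF the log2 fold change ran over *cel.1* −0.15 to 0.11. For mutants against WT in CONVD the log2 fold change ran over *ela2l* −0.02 to 0.36. For CONVD against *Exiguobacterium* the log2 fold change ran over *ela2* −0.17 to 0.20, *ela2l* −0.14 to 0.25, *ela3l* −0.44 to 0.26, *ctrb1* −0.38 to 0.08, *prss1* −0.37 to 0.12, *prss59.1* −0.45 to 0.11, *cpa5* −0.51 to 0.10, *cel.1* −0.27 to 0.12, *cel.2* −0.44 to 0.01. For CONVD against *Chryseobacterium* the log2 fold change ran over *cpb1* −0.14 to 0.65, *cel.1* −0.02 to 0.46. Each member had at least 115 reads in every library, so depth set no limit of detection.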
